A study of Mus musculus with 4 samples.

Results

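Smooth muscle actin, its calponin and transgelin partners, non-muscle and fast muscle myosin subunits and the actin-binding protein LASP1 were followed in C2C12, a mouse myoblast cell line, after siRNA transfection. The genes were Acta2, Cnn1, Cnn2, Tagln2, Myh9, Myl12a, Mylpf and Lasp1. Their clones were picked by the gene symbols and gene IDs of the deposited table, which gave 11 of 16832 clones. The set was put together because Acta2 and Lasp1 lay higher with HuR siRNA and because myoblasts were taken to express this contractile set. That was not checked gene by gene. The comparison between the siRNAs therefore helped to choose the set, and its values are given here as a description. SEs and intervals come from limma, which combines the spread of a clone's own arrays with the spread typical of all clones. They can therefore be narrower or wider than the clone's own arrays alone would give, and those of the members are not used as tests. Of the 11 clones, 9 carried identifiers of 1 gene, and 2 carried those of both Myl12a and its close relative Myl12b.

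Proliferating cells in serum-supplemented DMEM received siRNA against HuR or a control siRNA, and total RNA labelled with 33P was hybridised to 4 arrays of spotted cDNA clones, 2 with HuR siRNA and 2 with control siRNA. HuR is the product of Elavl1 and binds AU-rich mRNAs, and the comparison asked which transcripts differ when it is targeted. Whether both arrays of an siRNA stem from separate cultures is not stated in the labels, so the spread behind SDs and intervals may be only technical. All values are z-scores as deposited, in which 1 unit is 1 SD of all spots in an array section. They give no fold change. A z-score places a spot among the spots of its section, and because signal also depends on the clone it does not rank the amounts of different mRNAs. In whole-culture RNA, fewer cells of a type and less RNA per cell cannot be told apart.

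Contractile force in non-muscle cells comes from actin filaments and bipolar filaments of myosin II. Phosphorylation of the regulatory light chain by myosin light chain kinase and other kinases switches the motor on, and calponin and transgelin bind along the actin filament. Alpha smooth muscle actin is named for smooth muscle but is also made by myofibroblasts and cultured myoblasts. Transcription of many of these genes depends on serum response factor (SRF), which binds the CArG box, a motif of CC, 6 bases of A or T, and GG.

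The sequences before the starts of Acta2 and Cnn2 are shown because these genes had the most positive and the most negative difference among the members. Both are from RefSeq on GRCm38.p6 and end at the base before the start, and capitals mark CArG boxes. That of Acta2 lies at chr19:34255374-34255513 on the minus strand, and that of Cnn2 at chr10:79988460-79988599 on the plus strand.
Acta2: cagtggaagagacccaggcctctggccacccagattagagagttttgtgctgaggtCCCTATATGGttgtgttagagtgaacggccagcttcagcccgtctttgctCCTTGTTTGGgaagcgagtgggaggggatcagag
Cnn2: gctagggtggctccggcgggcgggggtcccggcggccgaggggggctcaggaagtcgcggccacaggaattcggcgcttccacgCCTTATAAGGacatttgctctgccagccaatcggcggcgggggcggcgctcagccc
The Cnn2 stretch holds 1 exact box, CCTTATAAGG, whose first base lies 56 bases before the start. The Acta2 stretch holds 2 boxes with 1 G or C among the inner 6 bases, CCCTATATGG and CCTTGTTTGG, with first bases 84 and 34 bases before the start. Because the motif reads the same on both strands, 1 search covers both. In the 250 bases before the start, an exact box was found in 1 of 8 member promoters and in 1.47% of all 32851 promoters of the table. A box with 1 such substitution was found in 3 of 8 member promoters, those of Acta2, Myl12a and Mylpf, and in 7.24% of all promoters. A match describes letters and does not show that SRF binds there.

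The targeted gene Elavl1 (gene ID 15568) was not detectably lower on the arrays labelled HuR siRNA. Its brighter clone read -0.2 and -0.21 on the HuR siRNA arrays and -0.12 and -0.2 on the control siRNA arrays, a difference of -0.045 (95% interval -0.174 to 0.084). Its other clone differed by 0.03 (95% interval -0.127 to 0.187). The deposited table is also named after siRNA against NPM, while its columns and the sample labels name HuR. Every direction below therefore rests on the labels alone. Over all 16832 clones, limma called 0 (0.0%) at the adjusted threshold of 0.05, while 665 (3.95%) stood below 0.05 without adjustment. Arrays of 1 group correlated across clones at 0.983 (HuR siRNA) and 0.982 (control siRNA), within the range of 0.98 to 0.985 between groups. Of the myoblast markers, 2 of 12 were found among the named clones, vimentin (Vim) and musculin (Msc). Myod1, Myf5 and Des were not among them, so the cell type was not checked on its defining genes. Of the smooth muscle markers, 4 of 9 were found, without Myh11 and Tagln. Beside Acta2 (0.44) and Cnn1 (-0.12) these were smoothelin, Smtn (0.02, SE 0.0461), and the myosin light chain kinase gene Mylk (-0.095, SE 0.0607), whose HuR siRNA arrays lay below the control siRNA arrays.

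Of the 11 member clones, 9 had a positive difference, beside 49.6% of all clones, and 2 a negative one. Both HuR siRNA arrays lay above both control siRNA arrays for 7 clones, those of Acta2, Myh9, Myl12a, the 2 clones shared by Myl12a and Myl12b, Mylpf and the brighter Lasp1 clone. They lay below both for 1 clone, that of Cnn1, and the groups overlapped for Cnn2, Tagln2 and the second Lasp1 clone. Over all clones 13.9% lay above and 13.7% below in this way. The members were chosen with this comparison known, so nothing is read from the gap. The median difference of the member clones was 0.125, and that of all clones was 0.0.

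**Figure D1:**
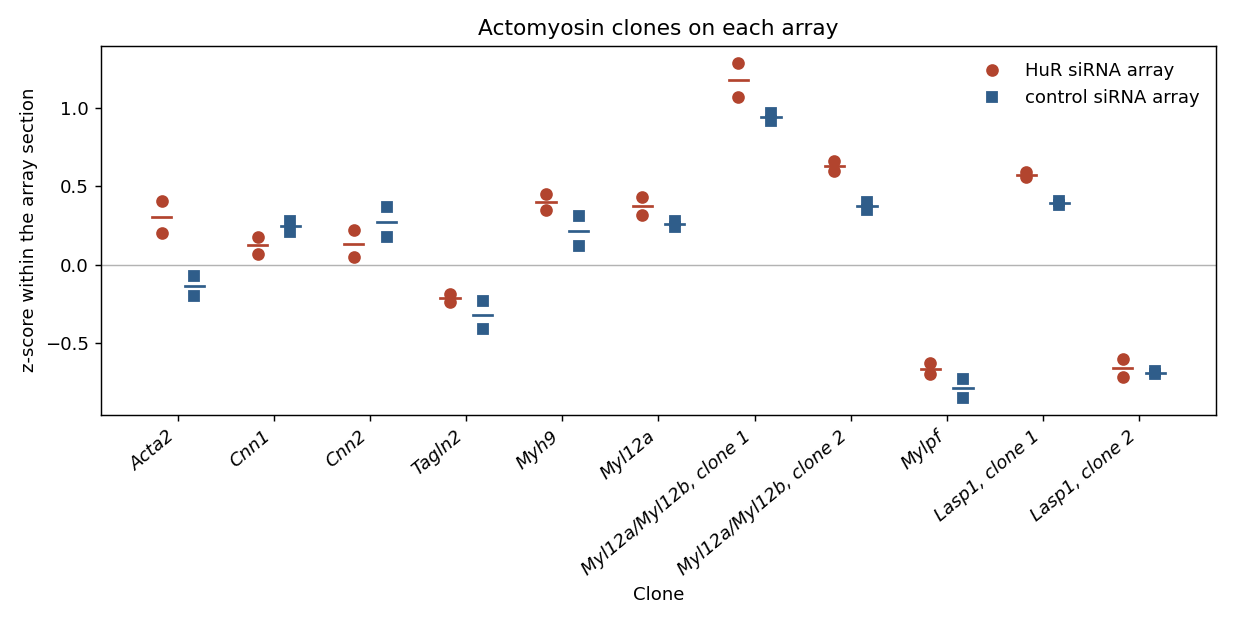
Each point is the z-score of a clone on 1 array, with the 2 HuR siRNA arrays (circles) left of the 2 control siRNA arrays (squares). Horizontal bars are group means. The points of Acta2 are 0.41 and 0.2 with HuR siRNA and -0.07 and -0.2 with control siRNA, while those of Cnn2 and Tagln2 overlap between the groups.

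Alpha smooth muscle actin, Acta2 (gene ID 11475), had the most positive difference of the members. Its single clone read 0.41 and 0.2 on the HuR siRNA arrays and -0.07 and -0.2 on the control siRNA arrays. The groups did not overlap, and the lower HuR siRNA array stood 0.27 above the higher control siRNA array. It averaged 0.305 ± 0.149 (HuR siRNA) and -0.135 ± 0.0919 (control siRNA), as mean ± SD with n = 2 each. The difference was 0.44, with an SE of 0.0926 and a 95% interval of 0.191 to 0.69. Of all clones, 0.755% had a higher difference. With 1 array left out in turn the difference was 0.335 to 0.545. It was 0.388 after the median of the spots with its grid number was removed. After the median of its source plate was removed it was 0.425, and the other 91 clones of that plate had a median difference of -0.02. A part of spot position in the difference was not tested. The clone stood at the 60.3rd percentile of spots in its section by mean z-score.

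The other actins on the arrays had differences nearer to 0. Beta-actin (Actb), the main cytoplasmic actin, was spotted as 8 clones, with 1 difference above 0 and 7 below it, and a range of -0.145 to 0.015. Its brightest clone read 2.95 and 2.98 with HuR siRNA and 2.94 and 2.96 with control siRNA, so that the groups overlapped at a level near the top of the section. Gamma-actin (Actg1), the other cytoplasmic actin, had 2 clones with differences of 0.07 and 0.135, both with the HuR siRNA arrays above the control siRNA arrays. The gap between Acta2 and these genes was not tested. Actin cDNAs are alike in sequence and the clone sequences were not used here, so the share of signal from related actins in the Acta2 spot was not tested.

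Both calponin members had a negative difference, with the groups apart for Cnn1 alone. Calponin 1, Cnn1 (gene ID 12797), a smooth muscle protein that inhibits actomyosin ATPase, read 0.07 and 0.18 on the HuR siRNA arrays and 0.21 and 0.28 on the control siRNA arrays. The groups parted by only 0.03. It averaged 0.125 ± 0.0778 (HuR siRNA) and 0.245 ± 0.0495 (control siRNA), as mean ± SD with n = 2 each. The difference was -0.12, with an SE of 0.0592 and a 95% interval of -0.28 to 0.0395. It was -0.065 without HuR siRNA replicate 1 and -0.175 without HuR siRNA replicate 2. Other clones of its source plate had a median difference of -0.06, and -0.062 remained after the plate median was removed. Calponin 2, Cnn2 (gene ID 12798), a relative found in many non-muscle cells, read 0.05 and 0.22 with HuR siRNA and 0.18 and 0.37 with control siRNA. Here the higher HuR siRNA array lay above the lower control siRNA array. The difference was -0.14 (SE 0.0951, 95% interval -0.396 to 0.116) and was -0.045 without control siRNA replicate 2 and -0.235 without control siRNA replicate 1. Calponin 3 (Cnn3), the acidic calponin, read 0.18 and 0.29 with HuR siRNA and 0.2 and 0.19 with control siRNA, a difference of 0.04.

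Transgelin 2, Tagln2 (gene ID 21346), a calponin-related actin-binding protein of non-muscle cells, read -0.24 and -0.19 on the HuR siRNA arrays and -0.23 and -0.41 on the control siRNA arrays. One control siRNA array was low and the other lay between the HuR siRNA arrays. The difference was 0.105 (SE 0.0746, 95% interval -0.096 to 0.306), and it was 0.015 without control siRNA replicate 2 and 0.195 without control siRNA replicate 1. The clone description of this spot names transgelin while its gene ID and symbol name Tagln2, so the assignment follows the ID.

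Non-muscle myosin heavy chain IIA, Myh9 (gene ID 17886), the motor subunit of the main myosin II of many cultured cells, read 0.35 and 0.45 with HuR siRNA and 0.31 and 0.12 with control siRNA. The nearest arrays of the groups were 0.04 apart, and the control siRNA arrays differed from each other by 0.19. It averaged 0.4 ± 0.0707 (HuR siRNA) and 0.215 ± 0.134 (control siRNA), as mean ± SD with n = 2 each. The difference was 0.185, with an SE of 0.0828 and a 95% interval of -0.0381 to 0.408. It was 0.09 without control siRNA replicate 2 and 0.28 without control siRNA replicate 1. The other non-muscle heavy chain on the arrays, Myh10, read -0.62 and -0.75 with HuR siRNA and -0.61 and -0.59 with control siRNA, a difference of -0.085 (SE 0.0595). The difference of Myh9 minus that of Myh10 was not tested.

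Myl12a (gene ID 67268) encodes a regulatory light chain of non-muscle myosin II, the subunit whose phosphorylation activates the motor. The clone with Myl12a identifiers alone read 0.32 and 0.43 with HuR siRNA and 0.24 and 0.28 with control siRNA, a difference of 0.115 (SE 0.0559, 95% interval -0.0356 to 0.266). The HuR siRNA arrays lay above, by 0.04 at the nearest. The brighter clone with identifiers of both Myl12a and Myl12b read 1.07 and 1.29 with HuR siRNA and 0.92 and 0.97 with control siRNA, a difference of 0.235 (SE 0.0861). The other read 0.66 and 0.6 with HuR siRNA and 0.35 and 0.4 with control siRNA, a difference of 0.255 (SE 0.0474, 95% interval 0.127 to 0.383). All 3 light chain clones, which came from 3 source plates and both array sections, thus had both HuR siRNA arrays above both control siRNA arrays, as did 13.9% of all clones. Without HuR siRNA replicate 2 the differences of the Myl12a clone and of the brighter shared clone were 0.06 and 0.125, and that of the other shared clone stayed between 0.225 and 0.285 whichever array was left out. Which of the 2 genes the shared clones report is not settled by their identifiers. The essential light chain Myl6, which binds the same heavy chains, read 0.17 and 0.18 with HuR siRNA and 0.14 and 0.13 with control siRNA, a difference of 0.04 (SE 0.0396).

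Mylpf (gene ID 17907) encodes the regulatory light chain of fast skeletal muscle myosin, a gene of differentiated fibres. Its clone read -0.7 and -0.63 on the HuR siRNA arrays and -0.85 and -0.73 on the control siRNA arrays. All 4 values were low, at the 18.2nd percentile of the section, and the groups parted by 0.03. The difference was 0.125 (SE 0.0614, 95% interval -0.0404 to 0.29). It was 0.065 without control siRNA replicate 1 and 0.185 without control siRNA replicate 2. The clone shared source plate 104 with the Myl12a clone, and the median difference of the other 95 clones on that plate was 0.02.

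LASP1, a LIM and SH3 domain protein of focal adhesions and the cell edge, is encoded by Lasp1 (gene ID 16796) and was spotted as 2 clones. The brighter clone read 0.59 and 0.56 on the HuR siRNA arrays and 0.41 and 0.38 on the control siRNA arrays. Arrays of 1 group differed by 0.03, and the groups were 0.15 apart at the nearest. The difference was 0.18 (SE 0.0419, 95% interval 0.0672 to 0.293), with a range of 0.165 to 0.195 over the arrays left out. The second clone, at the 24.7th percentile of its section, read -0.72 and -0.6 with HuR siRNA and -0.68 and -0.7 with control siRNA, a difference of 0.03 (SE 0.057, 95% interval -0.124 to 0.184). The separation of the groups on the brighter clone was thus not seen on the dimmer one, where the control siRNA values lay between those with HuR siRNA.

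**Figure D2:**
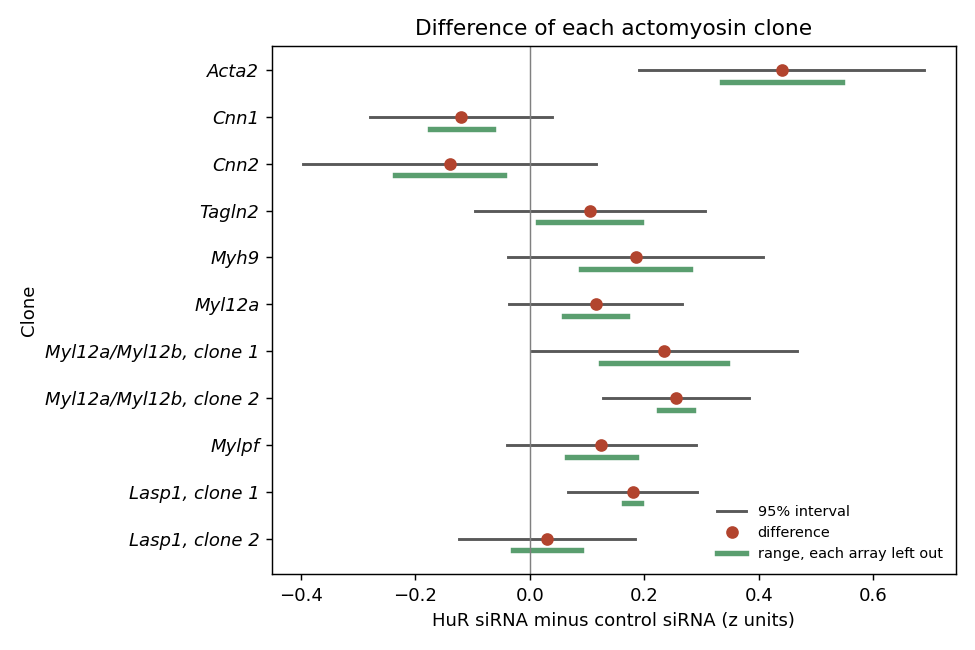
Points are the difference in z-score, HuR siRNA minus control siRNA, thin lines its 95% interval from limma, and thick lines the range with each array left out in turn. Acta2 stands at 0.44, the 3 light chain clones of Myl12a and Myl12b at 0.115, 0.235 and 0.255, and Cnn1 and Cnn2 at -0.12 and -0.14.

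Clones of 1 gene gave a view of how far a difference carries over to other spots. The 2 Lasp1 clones were 0.15 apart. The 2 shared Myl12a and Myl12b clones, which need not report the same gene, were 0.02 apart, at 0.235 and 0.255. The clone with Myl12a identifiers alone stood lower, at 0.115. The 8 Actb clones covered 0.16 from the lowest to the highest difference. The 3 clones of alpha-actinin 1 (Actn1), a filament crosslinker, covered 0.27, from 0.06 to 0.33. Among tropomyosins, the proteins that wind along the actin filament, the 3 clones of Tpm1 had differences of -0.035 to 0.025 and the 3 of Tpm3 of -0.07 to 0.02. Acta2, Cnn1, Cnn2, Tagln2, Myh9 and Mylpf had 1 clone each, so no second spot bears on their values.

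**Figure D3:**
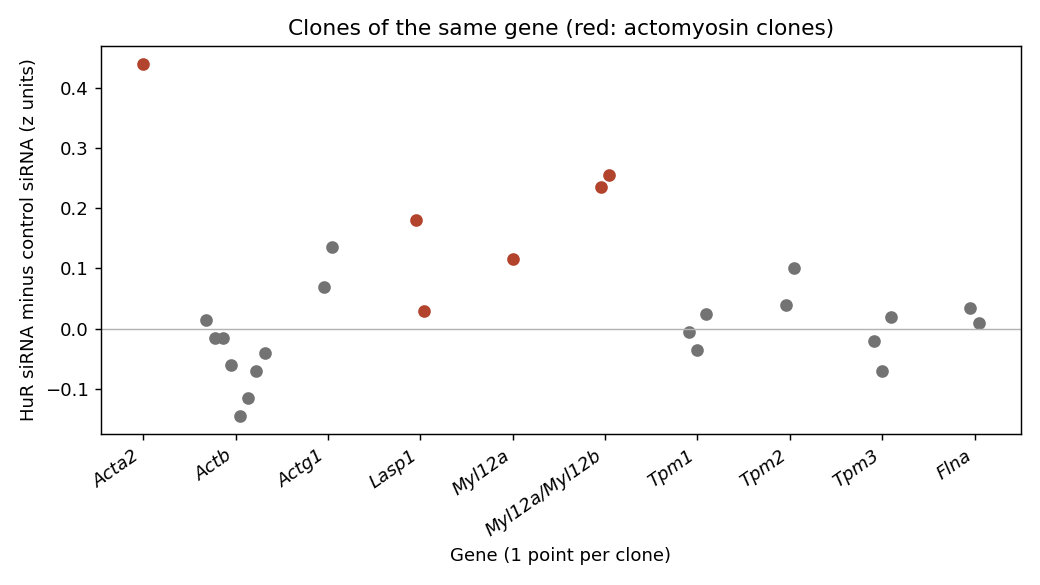
Each point is the difference in z-score of 1 clone, HuR siRNA minus control siRNA, with the clones of a gene from brightest to dimmest. The 8 Actb clones lie between -0.145 and 0.015, and the single Acta2 clone lies at 0.44.

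The other genes of the contractile apparatus were described from 8 lists, taking the clone of highest mean for each gene. Of 117 listed genes outside the members, 55 were measured, 31 of them with a positive and 22 with a negative difference. Over the brightest clones of all 6726 named genes, 3407 were positive and 3063 negative. None passed limma's adjusted p over all clones (0 of 55, against 0.0% of all clones). Both HuR siRNA arrays lay above both control siRNA arrays for 9 of the 55 and below for 9. Among the brightest clones of the 6726 named genes, 998 lay above and 906 below. The shares over all clones were 13.9% and 13.7%. Their median difference was 0.01, beside 0.005 over the brightest clones of all 6726 named genes.

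Among other smooth muscle contractile genes, 3 of 4 measured were positive and 1 was negative, with a median of 0.03. Caldesmon (Cald1), an actin-binding inhibitor of actomyosin, read 0.22 and 0.22 with HuR siRNA and 0.16 and 0.18 with control siRNA. Together with Cnn3 and Cnn2 it was the brightest of that list. The regulators of contraction, which are the kinases, phosphatase subunits and small GTPases that set light chain phosphorylation, with their exchange factors, had 3 of 10 positive and 7 negative, with a median of -0.06. Both HuR siRNA arrays lay below both control siRNA arrays for 5 of the 10, beside 13.7% of all clones, and above for 0. These 5 differences ran from -0.095 (Mylk, SE 0.0607) to -0.045 (Ppp1r14b, SE 0.0412). The list was chosen with earlier results known, so nothing is read from this count. The brightest were the guanine nucleotide exchange factor genes Arhgef2 (0.03, SE 0.043) and Arhgef12 (-0.055, SE 0.0434) and the GTPase gene Rhob (0.01, SE 0.043).

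Of the tropomyosins and filament crosslinkers, 7 of 13 were positive and 5 negative, with a median of 0.035. Beta-tropomyosin (Tpm2), the brightest, differed by 0.04 (SE 0.0487), filamin A (Flna) by 0.035 (SE 0.0479) and the bundling protein gene Fscn1 by -0.02 (SE 0.0915). Of the LIM and focal adhesion adaptors other than Lasp1, 10 of 17 were positive and 6 negative, with a median of 0.01. The brightest of these were Pdlim1 (-0.03, SE 0.0422), Lmo7 (0.045, SE 0.0464) and vinculin (Vcl), which links adhesions to actin (0.005, SE 0.0449). Sarcomere genes other than Mylpf had 4 of 27 measured, 3 positive and 1 negative. The embryonic and atrial light chain gene Myl4 differed by -0.055 (SE 0.0538), the slow troponin T gene Tnnt1 by 0.045 (SE 0.0516) and the Z-disc actinin gene Actn2 by 0.005 (SE 0.0507). Of a list of SRF and other transcription regulators, 4 of 12 genes were measured, 2 positive and 2 negative. Wwtr1 differed by 0.015 (SE 0.0464), Elk4 by -0.1 (SE 0.0497) and Yap1 by -0.01 (SE 0.049). Srf itself was not among the named clones.

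**Figure D4:**
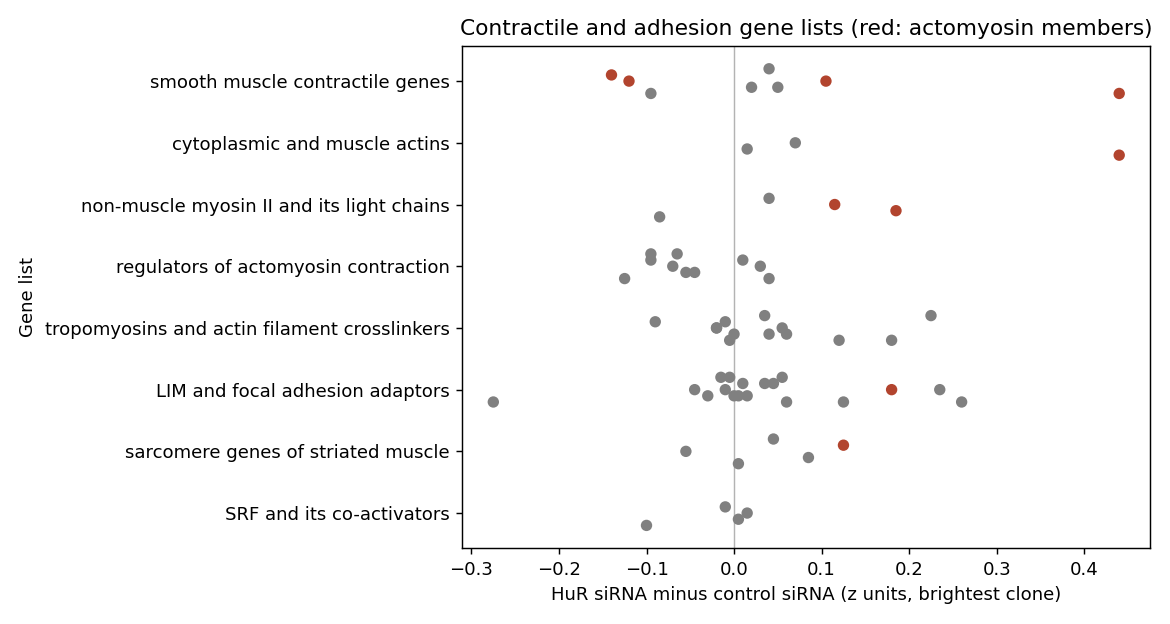
Points are genes, placed by the difference in z-score of their brightest clone, HuR siRNA minus control siRNA, in 8 lists; height within a list has no meaning. Genes outside the members lie between -0.275 and 0.26, and the median of the contraction regulators is -0.06.

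Markers of other cell types were few. Fibroblast markers had 7 of 9 measured, 4 positive and 3 negative, with differences of -0.015 to 0.045. The matrix protein gene Postn and the brightest of 4 clones of the collagen gene Col3a1 gave spots near the top of their sections. Their mean z-scores were 2.19 and 2.07. The other measured fibroblast markers had lower means. These were 1.048 (Col1a2), 1.025 (Lum), 0.042 (Dcn), -0.318 (Col1a1) and -0.715 (Pdgfra, at the 21.9th percentile of its section). Another Col3a1 clone was dim, at -0.67 and -0.71 with HuR siRNA and -0.64 and -0.65 with control siRNA. The collagen gene Col1a2 differed by -0.015 (SE 0.0534). The endothelial markers Pecam1 and Cdh5 differed by -0.08 (SE 0.0815) and -0.285 (SE 0.1313), and the macrophage marker Lyz2 by -0.06 (SE 0.0419). The Cdh5 clone was dim, at the 4.4th percentile of its section. The part of these markers in the member values was not tested.

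The genes most like Acta2 across the 4 arrays were found by the Euclidean distance between z-scores centred on the mean of each clone, over 6725 other named genes. They were Kctd18 (distance 0.127), E330013P04Rik (0.18) and Ndufc1 (0.217), beside a median distance of 0.479. Kctd18 read -0.68 and -0.97 with HuR siRNA and -1.33 and -1.42 with control siRNA, low among the spots of its section. The genes most like the brighter Lasp1 clone included Efs (0.022) and Ppp1r15a (0.03), beside a median of 0.2. Efs read -0.88 and -0.89 with HuR siRNA and -1.06 and -1.1 with control siRNA, also low among the spots of its section. Acta2 and Lasp1 were chosen for their difference between the siRNAs, and that difference is part of the distance. Genes near them therefore share it largely by construction, and nothing is read from it. With 4 arrays, likeness of this kind describes these arrays only.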

How the data were processed

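Values are the authors' deposited score per spot, a z-score, for 16896 spots on each of 4 arrays. This was read from the values: in each of 2 sections of 8448 spots the mean is 0 and the SD is 1. The steps from scan to z-score are not given here. The second deposited table held equal values in all 67584 cells. Columns were matched to samples by siRNA and number.

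Spots described as empty (52) or without an accession (6) were left out. Spots of 1 clone were averaged, and different clones of a gene were kept apart. Of 16832 clones, 9496 (56.4%) were named through gene IDs, RefSeq accessions or symbols, updated with the RefSeq gene table of GRCm38.p6, and 147 with disagreeing identifiers were left unnamed, except that those of Myl12a were kept as members.

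All clones entered 1 two-sided fit without a block (limma 3.58.1, R 4.3.3, Benjamini-Hochberg over all clones, threshold 0.05). The fit alone was also tried on simulated data, with added changes larger than any member difference. That trial does not cover the naming, picking or listing of clones, or differences of the size seen in the members. An exact permutation test of 2 against 2 arrays cannot go below p = 0.333. Precision is limited by the number of arrays, and the SE of a difference had a median of 0.0534. Members and lists were chosen with earlier results of these data known. All member clones were named, with the 3 brightest measured genes of each list, any clone past the threshold, the 3 genes nearest to Acta2 and to Lasp1, and Elavl1. Other names in the text (further actin, tropomyosin, heavy and light chain genes, Cnn3 and cell type markers) serve as comparisons and were added after their values were seen. A gene picked by the rule for Lasp1 is not reported here and stayed in all counts.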

Additional observations from a re-analysis of the deposited data

Results flagged for a closer look

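Signal appeared in some spots described as empty, and whether they hold a clone was not tested. Of the 52 spots so described, all in the second array section, 19 were above 0 on every one of the 4 arrays. The other 33 were below 0 on all 4. The 19 positive spots had mean z-scores of 0.51 to 2.14 and lay in grids 266 to 311. Their differences between HuR siRNA and control siRNA ran from -0.215 to 0.07, with a median of 0.03. Of the 4 member clones in that section, 0 lay in this range of grids.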

How the results depend on the processing

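The count of clones past the threshold was 0 in 11 of 12 alternatives and 1 with quantile normalization within each section, a clone outside the members. The cause was not tested. The smallest limma adjusted p ranged from 0.033 to 0.937. At an unadjusted p under 0.05 stood 343 clones without the lower 50% by mean, where fewer clones were tested, and 519 to 962 elsewhere, against 665 in the comparison as reported. With the replicate block 0 clones passed and 962 had an unadjusted p under 0.05. The labels do not say what a replicate number marks, and deviations of same-numbered arrays correlated at 0.101. Of 128 recomputed member differences, 126 kept their direction, and none passed (lowest adjusted p = 0.469). The second Lasp1 clone was the exception, at 0.0 with source plate medians removed and between -0.03 and 0.09 with 1 array left out, where the lone array is assumed to vary like the other group. Without the lower 50% of clones, the second Lasp1 clone, Tagln2 and Mylpf gave no value. With 1 clone per gene the second Lasp1 clone had none either. Several alternatives, such as the replicate block and 1 clone per gene, cannot change a member difference, and Acta2 stayed at 0.44 with each of these. Where the groups did not overlap, leaving out 1 array cannot reverse the direction either. The count of kept directions was thus largely fixed in advance and does not measure robustness.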

Other observations

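Several genes of actin filaments and adhesions outside the members had differences of a size like those of Lasp1 or Acta2, and they are given here after their values were seen. Actn1 had a positive difference on all 3 clones. The 2 dimmer clones read 0.49 and 0.4, and 0.19 and 0.27, with HuR siRNA, against 0.23 and 0.03, and -0.08 and -0.12, with control siRNA, differences of 0.315 (SE 0.0842) and 0.33 (SE 0.0497). The brightest clone, used for the lists, differed by 0.06 (SE 0.0621), with overlapping groups.

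Among LIM domain genes, Fhl2 read -0.04 and -0.13 with HuR siRNA and -0.35 and -0.34 with control siRNA, a difference of 0.26 (SE 0.0499). Csrp1, which encodes a LIM protein that binds alpha-actinin, differed by 0.235 (SE 0.0567). Crip1, a small LIM protein gene, lay the other way, at -0.6 and -0.54 with HuR siRNA and -0.28 and -0.31 with control siRNA, a difference of -0.275 (SE 0.0454). All of these had an adjusted p of 0.99 over all clones by limma and did not pass the threshold.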
